A study of Mus musculus with 32 samples.

Results

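The 10 genes described here mark cortical inhibitory interneurons and were followed across 32 3'Pool-seq libraries of mouse frontal cortex. They were chosen by symbol, and all 10 of the 10 named symbols were found among the 33000 genes of the count table. They comprise the genes for GABA synthesis and vesicular loading (Gad1, Gad2, Slc32a1), the lineage factor Lhx6, the calcium-binding protein parvalbumin (Pvalb), and the neuropeptides Sst, Cort, Npy, Vip and Cck. The comparison asks about loss of interneuron transcripts in a brain with chronic interleukin-6.

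The libraries came from 3-month-old C57BL/6 mice, either wild-type (WT) or homozygous for GFAP-IL6, a transgene in which the Gfap promoter drives the cytokine interleukin-6 in astrocytes. Each genotype was profiled with 50, 10, 1 and 0.5 ng of total RNA in the reverse transcription, with 4 libraries for every genotype and input. The labels number the libraries 1 to 4 in each group without saying whether one number is one animal, so the p-values measure the spread between these libraries, which may be partly technical. Within a genotype, libraries of the same number mostly resembled each other across inputs, so a like result at another input is not independent. 3'Pool-seq primes from the poly(A) tail and reads near the 3' end of a transcript, and all libraries are indexed at reverse transcription and pooled.

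Cortical interneurons make the inhibitory transmitter GABA from glutamate with the decarboxylases encoded by Gad1 and Gad2, and load it into synaptic vesicles with the transporter encoded by Slc32a1. The transcription factor Lhx6 is kept in cells born in the medial ganglionic eminence, which include the fast-spiking Pvalb cells and the dendrite-targeting Sst cells. Vip cells, from the caudal ganglionic eminence, mostly inhibit other interneurons. Npy and Cort are peptides of subsets of these cells, whereas Cck is made by some interneurons and also by many pyramidal neurons, so that its level in whole cortex is not that of interneurons alone.

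The 5 peptide genes are placed side by side here because activity-dependent induction through the cAMP response element is textbook biology for Sst and Vip. They also include Cck, whose genotypes did not overlap at 50 ng, and Vip, whose genotypes did not overlap with counts summed over inputs. That second reason was taken from these same data, and the other peptide genes did not share it. The 120 bases before the transcription start are given 5' to 3' from the RefSeq annotation of GRCm38.p6. Capitals mark the full cAMP response element TGACGTCA, its shorter core TGACG or CGTCA (each contained in the full element), and the TATA motif TATAAA, each searched on both strands.
Sst promoter, chr16:23890845-23890964, minus strand: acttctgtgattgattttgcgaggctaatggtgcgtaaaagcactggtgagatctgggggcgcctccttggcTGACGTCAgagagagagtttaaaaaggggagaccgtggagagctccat
Cort promoter, chr4:149126764-149126883, minus strand: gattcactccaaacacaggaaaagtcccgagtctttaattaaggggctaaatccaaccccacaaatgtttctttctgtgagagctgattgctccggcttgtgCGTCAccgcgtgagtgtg
Npy promoter, chr6:49822590-49822709, plus strand: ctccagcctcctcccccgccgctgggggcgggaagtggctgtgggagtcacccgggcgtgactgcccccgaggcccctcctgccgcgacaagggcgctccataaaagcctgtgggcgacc
Vip promoter, chr10:5639098-5639217, plus strand: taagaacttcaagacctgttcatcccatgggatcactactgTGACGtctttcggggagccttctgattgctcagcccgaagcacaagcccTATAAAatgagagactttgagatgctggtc
Cck promoter, chr9:121495695-121495814, minus strand: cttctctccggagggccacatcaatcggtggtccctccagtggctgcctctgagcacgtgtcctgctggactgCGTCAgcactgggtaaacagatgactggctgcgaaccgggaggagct

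The full element stood 48 bases before the start of Sst. The core alone was found at -18 in Cort, -79 in Vip and -47 in Cck, and TATAAA at -30 in Vip, whereas the Npy window held none of the 3 motifs. Over 32851 RefSeq promoter windows of this length, 1.24% held the full element, 11.7% the core and 6.34% TATAAA on either strand. These matches describe the letters of the windows and were not tested as binding sites.

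The transgene and the tissue were checked first. At 50 ng Il6 counted 4 to 22 reads in each GFAP-IL6 library and 0 or 1 in WT, and at 10 ng 2 to 41 and 0 to 3. The lower inputs did not separate the genotypes by Il6: at 1 ng 1 library labelled WT held 13 reads while 2 GFAP-IL6 libraries held 0, and at 0.5 ng every library held 0. Gfap, the astrocyte intermediate filament, rose from 11.3 ± 2.46 to 53.2 ± 19.6 CPM at 50 ng (counts per 1000000 counted reads of a library; mean ± SD, n = 4 and 4; log2 fold change 2.20, adjusted p = 0.000113 by Benjamini-Hochberg in edgeR's quasi-likelihood test). Slc17a7, the vesicular glutamate transporter of cortical excitatory neurons, was present at 27.1 to 45.8 CPM in every 50 ng library. Total counts ran from 261378 to 9840302 per library, so that 3 counts corresponded to between 0.305 and 11.5 CPM. Reads carry no molecular identifiers, and such floors cover counting error only. One library group stood apart: GFAP-IL6 replicate 4 departed from the other GFAP-IL6 libraries along gene length, most of all at 50 ng, and results are given with and without it.

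No interneuron member passed the test between the genotypes at any input. At an adjusted p under 0.05 (edgeR quasi-likelihood test, Benjamini-Hochberg over all genes tested) 0 of 10 members were called at 50 ng, where 0.28% of 11773 tested genes were called, and 0 of 10 at 10 ng, where 0.332% of 12043 were. At 1 ng 0 of 9 members were called against 0.0323% of all genes, and at 0.5 ng 0 of 9 against 0.0117%. Lhx6 was too low to be tested at these inputs. With the 4 inputs of each genotype and number summed, 0 of 10 were called against 0.468% of 13450 genes. DESeq2 also called 0 members in each of these comparisons. A count of 0 among 10 genes is close to these background shares and is not a result about the members, so each gene is given below with its interval.

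At an unadjusted p under 0.05 the members counted 0 of 10 at 50 ng (5.63% of all genes), 2 of 10 at 10 ng (7.48%), 1 of 9 at 1 ng (3.59%), 1 of 9 at 0.5 ng (2.87%) and 2 of 10 in the sums (7.9%). They were Slc32a1 and Sst at 10 ng, Vip at 1 ng, Pvalb at 0.5 ng, and Sst and Vip in the sums. None of these stayed under 0.05 without GFAP-IL6 replicate 4, a fit that also has fewer libraries. The unadjusted p (edgeR) was then 0.128 for Slc32a1 and 0.110 for Sst at 10 ng, 0.0792 for Vip at 1 ng and 0.0743 for Pvalb at 0.5 ng. For the sums it was 0.0898 for Sst and 0.0719 for Vip. Leaving out WT replicate 3 instead kept Slc32a1 and Sst at 10 ng under 0.05, at 0.00829 and 0.0495 (edgeR). The others rose over 0.05 there too, to 0.0917 for Vip at 1 ng and 0.0714 for Pvalb at 0.5 ng (edgeR). In the sums Sst rose to 0.0554 and Vip to 0.0799 (edgeR). Most of these losses were thus not particular to GFAP-IL6 replicate 4. The fitted log2 difference was negative for 6 of 10 members at 50 ng, with a median of -0.21 beside 0.00 over all genes tested. At 10 ng it was negative for 7 of 10, with a smaller median of -0.09 beside 0.00. At 1 ng it was negative for 6 of 9 (median -0.25 beside -0.01), and at 0.5 ng for 7 of 9 (-0.17 beside -0.01). In the sums it was negative for 7 of 10, with a median of -0.17 beside 0.01. The sums reuse the libraries of every input, GFAP-IL6 replicate 4 at 50 ng included, and are not separate from these medians.

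**Figure D1:**
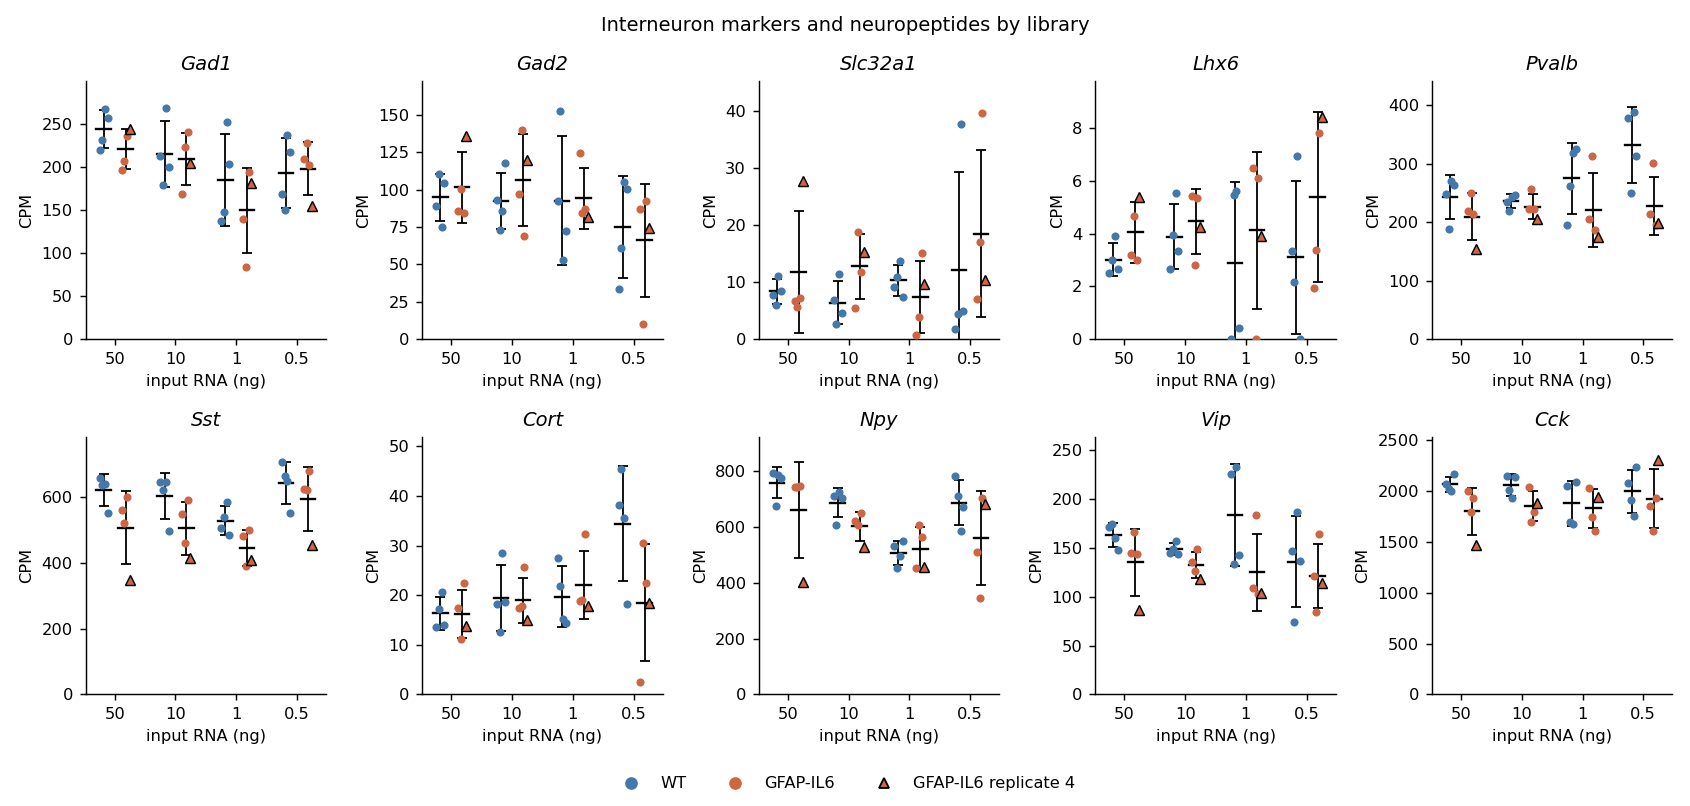
Level of each gene in CPM (y axis, linear) in every library against the input RNA in ng, with WT in blue and GFAP-IL6 in orange. Triangles are GFAP-IL6 replicate 4. Short lines mark the mean and error bars the SD of 4 libraries, and the y axis starts at 0, which cuts error bars that reach below it. At 50 ng the triangle is the lowest point for Sst (346 CPM), Npy (402 CPM), Vip (86.2 CPM), Pvalb (154 CPM) and Cck (1467 CPM), and the highest for Gad2 (136 CPM), Slc32a1 (27.8 CPM) and Lhx6 (5.38 CPM).

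Gad1 (chr2:70553072-70602014, plus strand; all gene positions are GRCm38) encodes the decarboxylase that makes most of the brain's GABA. At 50 ng it measured 219, 232, 268 and 257 CPM in WT replicates 1 to 4 and 197, 206, 236 and 244 CPM in GFAP-IL6. The genotypes overlapped. The means were 244 ± 22.3 and 221 ± 23.0 CPM (SD, n = 4 each), a log2 difference of -0.18 with a 95% confidence interval from -0.50 to 0.14 (edgeR, Benjamini-Hochberg adjusted p = 0.839). At 10 ng the libraries read 213, 178, 268 and 199 CPM in WT and 169, 223, 241 and 205 CPM in GFAP-IL6, again overlapping. The sums over inputs gave the narrowest interval, -0.38 to 0.13 around -0.13 (adjusted p = 0.816, edgeR), which corresponds to a change in GFAP-IL6 between -23.3% and 9.31%.

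Gad2 (chr2:22622205-22693874, plus strand), the decarboxylase concentrated at nerve terminals, read 89.4, 111, 74.9 and 104 CPM in WT and 85.4, 101, 84.2 and 136 CPM in GFAP-IL6 at 50 ng. The highest library was GFAP-IL6 replicate 4, and the rest lay within the WT range. The log2 difference was 0.07 (SE 0.20; edgeR, Benjamini-Hochberg adjusted p = 0.949), and -0.11 without that replicate. In the sums it was 0.08, with an interval from -0.24 to 0.40, or a change between -15.1% and 31.6%.

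Slc32a1 (chr2:158610767-158615748, plus strand), the vesicular GABA transporter, was counted far more thinly. At 50 ng it read 7.75, 6.02, 11.1 and 8.49 CPM in WT and 6.66, 5.60, 7.15 and 27.8 CPM in GFAP-IL6. Replicate 4 alone stood above WT, and the other GFAP-IL6 libraries lay inside or just below the WT range. The log2 difference was 0.54 (SE 0.40; edgeR, Benjamini-Hochberg adjusted p = 0.837) and turned to -0.39 without replicate 4. At 10 ng the values were 6.79, 2.64, 11.4 and 4.51 CPM in WT and 5.41, 18.8, 11.7 and 15.2 CPM in GFAP-IL6, with 3 of 4 GFAP-IL6 libraries above every WT library. The log2 difference there was 0.91 (95% interval 0.07 to 1.75), with an unadjusted p of 0.0354 and an adjusted p of 0.633 in the edgeR test with Benjamini-Hochberg adjustment. With all libraries, the 3 genes of GABA synthesis and loading did not share a direction. When replicate 4 was left out at 50 ng, Gad2 and Slc32a1 turned and all 3 were negative, at -0.22 for Gad1, -0.11 for Gad2 and -0.39 for Slc32a1. At 10 ng without it they still differed, at -0.07, 0.05 and 0.76.

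Lhx6 (chr2:36081953-36105408, minus strand), which specifies and maintains the Pvalb and Sst classes, gave only 4 to 30 counts per library at 50 ng. Its levels were 2.49, 3.01, 3.90 and 2.65 CPM in WT and 3.19, 4.66, 3.00 and 5.38 CPM in GFAP-IL6. GFAP-IL6 replicates 1 and 3 lay within the WT range, and the log2 difference of 0.40 (SE 0.41; edgeR, Benjamini-Hochberg adjusted p = 0.852) was no larger than its error. Without GFAP-IL6 replicate 4 it was 0.16. It was at 0 in 2 libraries at 1 ng and 1 library at 0.5 ng. In the sums the interval of the change reached from -23.9% to 142%, so a moderate change was not detectable at this depth.

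Pvalb (chr15:78191114-78206400, minus strand) buffers calcium in fast-spiking basket and chandelier cells. At 50 ng it read 248, 188, 270.5 and 264 CPM in WT and 219.8, 250.02, 213 and 154 CPM in GFAP-IL6. The lowest library was GFAP-IL6 replicate 4, and the groups overlapped (log2 difference -0.26, SE 0.18; edgeR, Benjamini-Hochberg adjusted p = 0.836). At 10 ng the genotypes were closer, at 236 ± 11.9 and 227 ± 21.6 CPM. At 0.5 ng Pvalb read 378, 249, 389 and 312 CPM in WT and 215, 302, 195 and 199 CPM in GFAP-IL6. There 3 of 4 GFAP-IL6 libraries lay below every WT library, with a log2 difference of -0.58 and an unadjusted p of 0.0324, which became 0.99989 after Benjamini-Hochberg adjustment (edgeR). The exact permutation test of the mean gave p = 0.0571, where 0.0286 is the smallest that 70 arrangements of 4 against 4 allow.

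Sst (chr16:23889573-23890958, minus strand), the inhibitory peptide somatostatin, read 657, 636, 638 and 550.3 CPM in WT and 559, 522, 598 and 346 CPM in GFAP-IL6 at 50 ng. WT replicate 4 fell among the GFAP-IL6 libraries, and GFAP-IL6 replicate 4 lay far below all others. The means were 620.2 ± 47.6 and 506 ± 111 CPM (log2 difference -0.33, 95% interval -0.69 to 0.02; edgeR, Benjamini-Hochberg adjusted p = 0.835).

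A like ordering of the Sst libraries was seen at 10 ng. They read 645, 621, 645 and 497 CPM in WT and 548, 460.3, 591 and 415 CPM in GFAP-IL6, with replicate 4 the lowest in each genotype. The log2 difference was -0.29 (95% interval -0.56 to -0.02), with an unadjusted p of 0.0365 and a Benjamini-Hochberg adjusted p of 0.633 (edgeR). The sums over inputs gave 636, 623, 635 and 521 CPM against 554, 495, 593 and 401 CPM, a log2 difference of -0.27 (unadjusted p = 0.0395, adjusted p = 0.613, edgeR). In both genotypes, replicate 4 held the lowest sum, so the overlap came from WT replicate 4. Without GFAP-IL6 replicate 4 the difference in the sums was -0.18, with an unadjusted p of 0.0898 in edgeR. With all libraries, the interval of the change in the sums runs from -30.7% to -0.97%.

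Cort (chr4:149125034-149126763, minus strand), cortistatin, is a relative of somatostatin made by a subset of interneurons. It read 13.6, 17.3, 20.6 and 13.9 CPM in WT and 17.4, 11.2, 22.4 and 13.8 CPM in GFAP-IL6 at 50 ng. The genotype ranges lay over each other, with a log2 difference of 0.01 (SE 0.25; edgeR, Benjamini-Hochberg adjusted p = 0.997). Cort and Sst share no run longer than 21 bases in their annotated transcripts. At 0.5 ng Cort spanned 18.2 to 45.5 CPM in WT and 2.56 to 30.5 CPM in GFAP-IL6.

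Npy (chr6:49822710-49829507, plus strand), neuropeptide Y, read 793, 677, 787 and 777 CPM in WT and 743, 744, 748 and 402 CPM in GFAP-IL6 at 50 ng. The first 3 GFAP-IL6 libraries lay close together, inside the WT range, and replicate 4 fell far below. The log2 difference was -0.24 with all libraries (SE 0.18; edgeR, Benjamini-Hochberg adjusted p = 0.837) and -0.05 without replicate 4. At 10 ng Npy read 711, 609, 727 and 702 CPM in WT and 623, 607, 651 and 527 CPM in GFAP-IL6. WT replicate 2 overlapped the GFAP-IL6 libraries, and the difference of -0.22 had an adjusted p of 0.708 (edgeR, Benjamini-Hochberg).

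Vip (chr10:5639218-5647617, plus strand), vasoactive intestinal peptide, read 171, 174, 159.7 and 148 CPM in WT and 145, 166, 143 and 86.2 CPM in GFAP-IL6 at 50 ng. The groups overlapped through GFAP-IL6 replicate 2, with a log2 difference of -0.32 (SE 0.19; edgeR, Benjamini-Hochberg adjusted p = 0.835). At 1 ng Vip was spread widely, at 225, 134, 232 and 142 CPM in WT and 109, 184, 103 and 104 CPM in GFAP-IL6. The difference there was -0.61 (unadjusted p = 0.0316, Benjamini-Hochberg adjusted p = 0.997, edgeR).

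In the sums over inputs Vip read 164, 147, 171 and 144 CPM in WT and 133, 143, 143 and 107 CPM in GFAP-IL6. Every GFAP-IL6 sum lay below every WT sum, but the nearest values, 144 and 143 CPM, almost touched. Among all genes tested in the sums 4.21% had groups that did not overlap, and Vip was 1 of 10 members. The log2 difference was -0.28 (95% interval -0.55 to -0.01), with an unadjusted p of 0.0402 and a Benjamini-Hochberg adjusted p of 0.613 (edgeR). The exact permutation p was 0.0286, the smallest possible, and 0.408 after Benjamini-Hochberg adjustment over the 50 permutation tests made on the 10 members at 4 inputs and in the sums. Without GFAP-IL6 replicate 4 the difference was -0.20 with an unadjusted p of 0.0719 in edgeR.

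Cck (chr9:121489824-121495694, minus strand), cholecystokinin, was the only member whose genotypes did not overlap at 50 ng. It read 2065, 2016, 2001 and 2168 CPM in WT and 1996, 1796, 1929 and 1467 CPM in GFAP-IL6. The nearest libraries, 2001 and 1996 CPM, were almost equal, and GFAP-IL6 replicate 4 lay lowest. Groups did not overlap for 3.33% of all genes tested at 50 ng and for 4.1% at 10 ng, where the count of members was 0. The means were 2062 ± 75.4 and 1797 ± 235 CPM, with a log2 difference of -0.24 (95% interval -0.56 to 0.08; edgeR, Benjamini-Hochberg adjusted p = 0.835), and an exact permutation p of 0.0286, the smallest possible. The difference was -0.13 without GFAP-IL6 replicate 4. At 10 ng Cck gave 2057 ± 104 and 1851 ± 146 CPM, at 1 ng 1876 ± 224 and 1828 ± 192 CPM, and at 0.5 ng 1993 ± 207 and 1923 ± 288 CPM, with SDs that covered the gap at both low inputs.

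**Figure D2:**
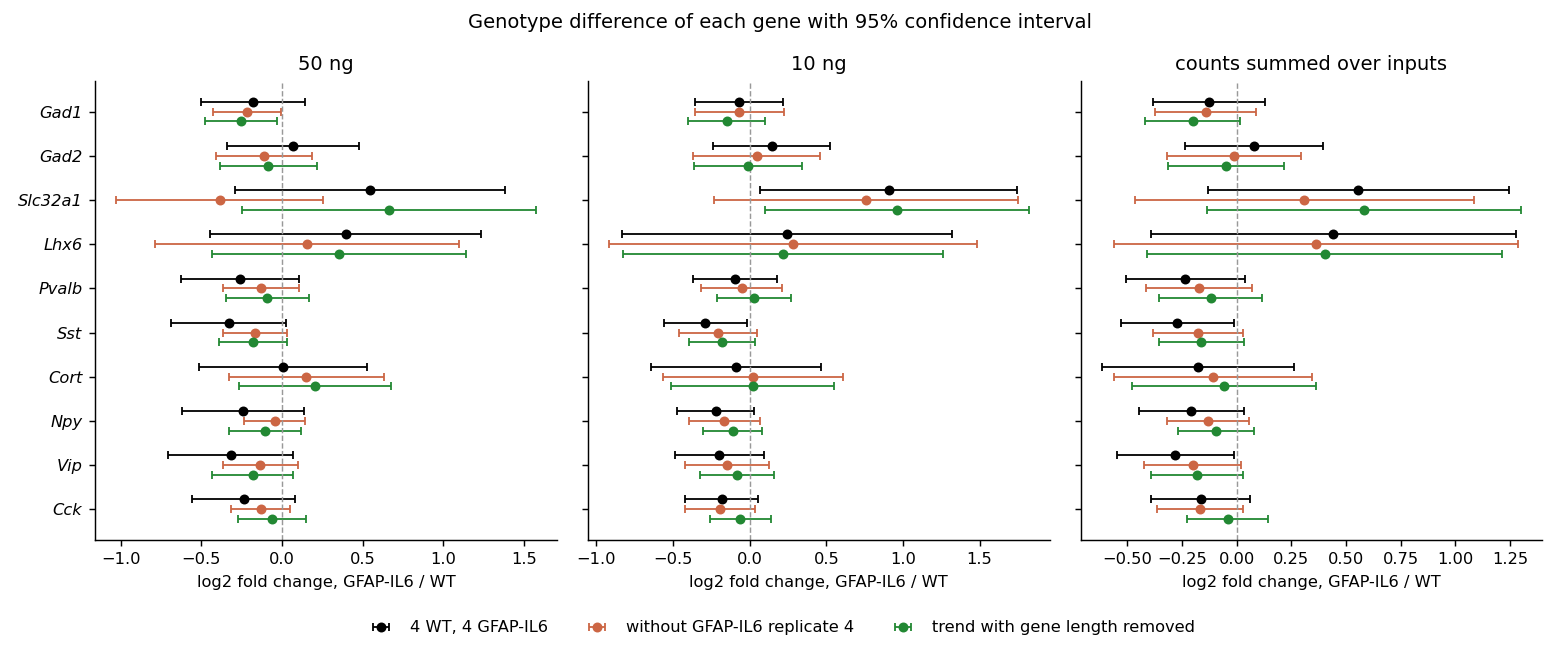
Fitted log2 fold change of GFAP-IL6 against WT (x axis) with its 95% confidence interval for each gene, at 50 ng, at 10 ng and in counts summed over inputs. Black uses all libraries, orange leaves out GFAP-IL6 replicate 4, and green removes a trend with gene length from each library. For Sst at 50 ng the 3 estimates are -0.33, -0.17 and -0.18, and for Slc32a1 they are 0.54, -0.39 and 0.66.

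The negative differences of Sst, Npy, Vip, Cck and Pvalb at 50 ng, which Cort did not share, stood beside a pattern with gene length in one library. For each library, the log2 ratio of CPM + 1 to the mean of the other 3 libraries of its group was set against gene length in the count table, over genes with a mean of at least 5 CPM. In GFAP-IL6 replicate 4 at 50 ng, Spearman's rho across 10506 genes was 0.688, and it was between -0.475 and 0.153 in the other 7 libraries at that input. At 10, 1 and 0.5 ng the libraries of replicate 4 gave 0.532, 0.181 and 0.085. Genes are not independent replicates, and these coefficients are descriptions without a p.

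The members divided by length in the same library. In GFAP-IL6 replicate 4 at 50 ng the 6 shortest members were all below the mean of the other 3 libraries, although Cort, at 13.8 CPM, was above replicate 2 at 11.2 CPM. Npy (566 bases) stood at -0.89, Sst (599 bases) at -0.69, Cort (677 bases) at -0.30, Cck (685 bases) at -0.38, Pvalb (1041 bases) at -0.56 and Vip (1527 bases) at -0.81. The 4 longest were all above that mean, with Slc32a1 (2797 bases) at 2.10, Lhx6 (3699 bases) at 0.57, Gad1 (4365 bases) at 0.20 and Gad2 (5744 bases) at 0.59. These member ratios are of CPM, whereas the medians over all genes are of CPM + 1. Across all genes, the median ratio was -0.64 for the 581 genes of at most 1000 bases and 0.50 for the 4046 genes above 4000 bases. Slc32a1 stood outside that pattern in size, since the median of its length class (2000 to 4000 bases) was -0.14.

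**Figure D3:**
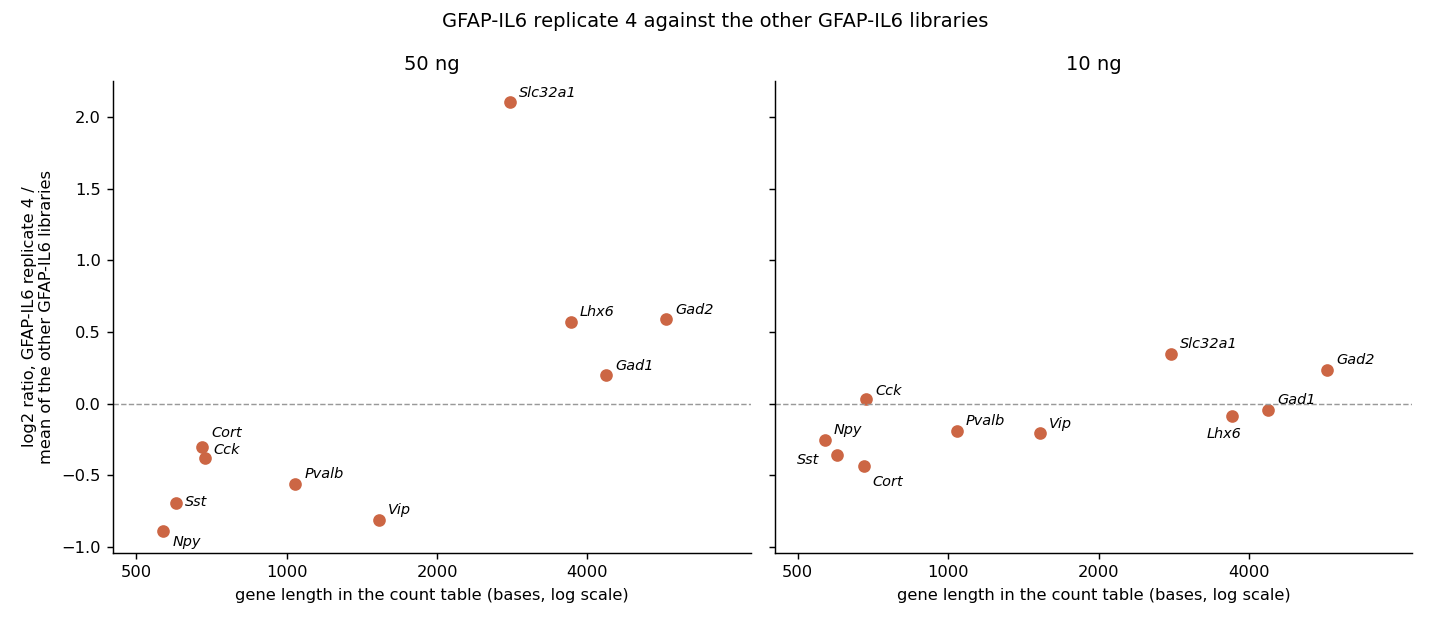
Log2 ratio of CPM in GFAP-IL6 replicate 4 to the mean CPM of the other 3 GFAP-IL6 libraries (y axis) against gene length in bases (x axis, log scale) for the 10 genes, at 50 ng and 10 ng. At 50 ng Npy (-0.89), Vip (-0.81) and Sst (-0.69) lie lowest among the short genes, and Slc32a1 (2.10) highest among the long ones. At 10 ng the range is narrower, from -0.43 for Cort to 0.35 for Slc32a1.

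Leaving out GFAP-IL6 replicate 4 at 50 ng brought Sst, Npy, Vip, Pvalb and Cck closer to WT. The log2 difference became -0.17 for Sst (95% interval -0.36 to 0.03), -0.05 for Npy, -0.13 for Vip, -0.13 for Pvalb and -0.13 for Cck (-0.31 to 0.05). Gad1 moved the other way, to -0.22 (unadjusted p = 0.0462, Benjamini-Hochberg adjusted p = 0.827, edgeR). With a trend on gene length removed from each library, Sst stood at -0.18, Vip at -0.18, Npy at -0.10, Pvalb at -0.09 and Cck at -0.06. All 5 of these estimates thus stayed on the negative side in both alternatives, at smaller sizes, and none passed the test. Gad1 again moved away from WT, to -0.26 (unadjusted p = 0.0263, Benjamini-Hochberg adjusted p = 0.723, edgeR). The biological coefficient of variation over all genes fell from 0.214 to 0.130 without that library, and the number of genes called rose from 33 to 78, none of them a member.

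Related inhibitory genes outside the 10 members gave few calls. In bulk tissue, fewer cells of a type and less RNA per cell cannot be told apart, which holds for every gene here. Of 18 genes of interneuron development and identity, 14 were tested at 50 ng and 17 in the sums, with 0 called in either.

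Microglial genes rose in the same libraries. Of 10 microglia and macrophage markers, 4 were called higher at 50 ng, 4 at 10 ng and 5 in the sums, 0 lower. Ctss, a lysosomal protease, rose from 178 ± 17.9 to 519 ± 191 CPM at 50 ng (log2 fold change 1.495, adjusted p = 0.00126 by Benjamini-Hochberg in edgeR), and C1qc, C1qb and Itgam rose too. The summed level of the list ran from 548 to 629 CPM in WT and from 753 to 1641 CPM in GFAP-IL6. The part of this rise in the levels of the interneuron genes was not tested.

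Of 24 further interneuron subtype markers and peptides, 21 were tested at 50 ng and 22 at 10 ng and in the sums, with 0 called. Grin3a, an NMDA receptor subunit found in Sst cells, came first in the sums, with 13.8 ± 1.076 and 22.4 ± 4.30 CPM (log2 difference 0.70; edgeR, Benjamini-Hochberg adjusted p = 0.237). Penk, the enkephalin precursor, came second at 97.1 ± 29.7 and 71.2 ± 16.8 CPM (-0.49, adjusted p = 0.515). Among 12 genes of GABA uptake, breakdown and the inhibitory synapse scaffold, 0 were called, and the astrocytic glutamine synthetase gene Glul came first in the sums (0.31, adjusted p = 0.595), followed by Nlgn2, an adhesion molecule of inhibitory synapses (0.60, adjusted p = 0.644). Among 13 receptors of the member peptides, 8 were tested in the sums and 0 called, led by Npy1r (0.32, adjusted p = 0.727) and Vipr1 (0.67, adjusted p = 0.735). All adjusted p-values here are from edgeR with Benjamini-Hochberg adjustment over all genes.

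Other cell types that a frontal cortex dissection can carry were counted beside these values. Of 14 striatal markers 11 were tested, and 1 was called, lower, in the sums: Ppp1r1b, the phosphoprotein DARPP-32 of striatal projection neurons and deep cortical cells, fell from 123 ± 19.3 to 79.1 ± 9.40 CPM (log2 fold change -0.66, adjusted p = 0.0409 by Benjamini-Hochberg in edgeR). The striatal-enriched list summed to 358 to 595 CPM in WT and 356 to 476 CPM in GFAP-IL6 at 50 ng. Drd2 was listed at 0 in all 32 libraries and Adora2a reached at most 3 counts, whereas Drd1, the receptor gene of the direct-pathway neurons, was present at 10.3 ± 4.13 CPM in WT and 5.34 ± 1.83 CPM in GFAP-IL6 at 50 ng. That difference was not seen at 10 ng, where Drd1 read 9.59 ± 2.83 CPM in WT and 10.3 ± 4.65 CPM in GFAP-IL6. At 1 ng it read 11.3 ± 9.86 and 9.42 ± 11.3 CPM, and at 0.5 ng 11.8 ± 9.21 and 24.2 ± 29.3 CPM. The part of striatal tissue in the levels of Penk or of the GABA genes, which striatal neurons also express, was not tested.

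Cortical excitatory markers (13 tested), oligodendrocyte markers (7) and choroid plexus markers (2 of 7 tested at 50 ng) gave 0 calls. The excitatory list summed to 1842 to 2223 CPM in WT and 1784 to 2864 CPM in GFAP-IL6 at 50 ng. Camk2a came first in the sums (log2 difference 0.55, adjusted p = 0.477), then Lamp5 (-0.22, adjusted p = 0.689; edgeR, Benjamini-Hochberg). At 50 ng Camk2a read 196 ± 8.25 CPM in WT and 333 ± 278 CPM in GFAP-IL6. The oligodendrocyte list summed to 5318 to 7249 CPM and 3573 to 7493 CPM. Mog came first there in the sums over inputs (-0.46, adjusted p = 0.606), then Opalin (-0.37, adjusted p = 0.677; edgeR, Benjamini-Hochberg). Ttr, the choroid plexus transthyretin gene, spanned 52.7 to 3355 CPM in WT at 50 ng, with WT replicate 3 highest, and 61.8 to 335 CPM in GFAP-IL6. The WT library numbered 3 was also the highest at 10, 1 and 0.5 ng, with Ttr at 3003, 3079 and 3110 CPM. Kcnj13, another choroid plexus marker, differed by -0.86 in the sums (adjusted p = 0.748, edgeR with Benjamini-Hochberg adjustment). Of 8 astrocyte markers only Gfap was called, at 50 ng, 10 ng and in the sums.

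The input amount was compared next, averaged over genotypes in one fit of all 32 libraries. Depth went with input: mean total counts were 3814570 at 50 ng and 4845480 at 10 ng, but 1478640 at 1 ng and 1510290 at 0.5 ng. At 10 ng against 50 ng, 0 members were called, as were 0% of 12164 genes, and at an unadjusted p under 0.05 the members again counted 0, beside 0.534% of all genes. The biological coefficient of variation was 0.526 in this fit, beside 0.214 at 50 ng and 0.238 at 10 ng when each input was fitted alone. Spread shared with the lower inputs left this contrast little room for calls, so these counts of 0 say little. At 1 ng against 50 ng 0 members were called (0.822% of all genes), with 2 at an unadjusted p under 0.05 (8.25%). At 0.5 ng against 50 ng 0 members were called (6.72% of all genes), with 1 at an unadjusted p under 0.05 (20% of all genes). This fit took the libraries as independent, although those of the same number resembled each other across inputs. With the number as a block, Pvalb was called at 0.5 ng against 50 ng, as given further below.

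Without that block, Npy was the member nearest to a call with input. It read 533, 453, 497 and 551 CPM in WT and 453, 608, 566 and 457 CPM in GFAP-IL6 at 1 ng, below all WT libraries at 50 ng. The log2 difference of 1 ng from 50 ng was -0.41 (SE 0.12; edgeR, Benjamini-Hochberg adjusted p = 0.125), and without GFAP-IL6 replicate 4 it was -0.48 (adjusted p = 0.0285), which is a call. At 0.5 ng Npy read 782, 711, 586 and 671 CPM in WT and 511, 346, 703 and 684 CPM in GFAP-IL6, so the lower level at 1 ng was not carried on to the smallest input in WT. Gad1 read 137, 147, 252 and 204 CPM in WT and 139, 84.2, 194 and 181 CPM in GFAP-IL6 at 1 ng (-0.42, adjusted p = 0.246, edgeR with Benjamini-Hochberg adjustment). Pvalb at 0.5 ng was 0.34 above 50 ng on the log2 scale (adjusted p = 0.144, edgeR with Benjamini-Hochberg adjustment), carried by WT at 332 ± 64.7 CPM against 243 ± 37.7 CPM at 50 ng.

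Whether the genotype difference itself changed with input was tested as an interaction. For 10 ng against 50 ng 0 members were called, beside 0% of all genes, and 0 had an unadjusted p under 0.05, beside 0.00822%. The same fit of all 32 libraries was used, and its shared spread again left this contrast little room for calls, so these counts of 0 say little. For 1 ng the counts were 0 members beside 0% of all genes, and 0 beside 2.74% unadjusted. For 0.5 ng they were 0 members beside 0.197%, and 0 beside 10.7% unadjusted. The larger differences of Vip at 1 ng and Pvalb at 0.5 ng were therefore not shown to differ from those at 50 ng.

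The spread between libraries of the same genotype set what could be seen at each input. The median over the 10 members of the coefficient of variation, pooled within genotype, was 17.6%, 15.1%, 30.5% and 26.3% with 50, 10, 1 and 0.5 ng of RNA. Libraries at 1 and 0.5 ng also held fewer counts on average, as given above. Cck was the tightest at 50 ng and 10 ng (9.05% and 6.49%). Lhx6 went from 26.3% at 50 ng to 86.6% at 1 ng, and Slc32a1 from 76.4% at 50 ng, where replicate 4 of GFAP-IL6 sits apart, to 104% at 0.5 ng.

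**Figure D4:**
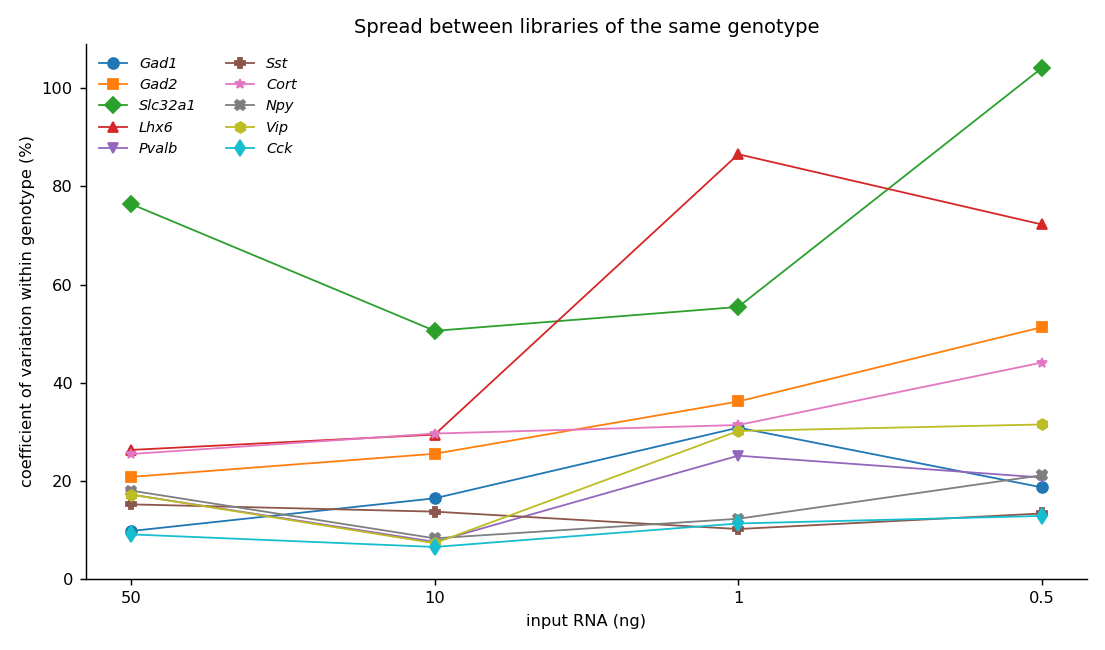
Coefficient of variation in percent between libraries of the same genotype, pooled over WT and GFAP-IL6 (y axis), against input RNA in ng (x axis, categories) for the 10 genes. Cck stays between 6.49% and 12.8%, while Slc32a1 and Lhx6 reach 104% and 86.6%.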

How the data were processed

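3'Pool-seq counts were available for 32 libraries of frontal cortex, 4 per genotype and input. Per the labels and the study's methods, the authors trimmed poly(A) stretches of at least 12 nucleotides, aligned with STAR 2.4 and counted reads per gene with featureCounts on mouse genes, and deposited raw counts with a gene length. The strand setting of counting is not given in the sources used here. Reads of Gad1 and Slc32a1 therefore cannot be told from those of their antisense neighbours where the genes overlap. Neither neighbour covers the 3' end of its member, near which the method reads. Here, counts were tested with the edgeR 4.0.16 quasi-likelihood test (R 4.3.3, TMM, filterByExpr, two-sided, Benjamini-Hochberg over all genes tested, called under 0.05), within each input, on sums over inputs, and in 1 fit of all libraries for input and interaction. DESeq2 1.42.0 was an alternative. CPM were counts per 1000000 of a library's total. Single genes were compared with exact permutation tests (Python 3.11.15, numpy 2.4.6), and Spearman's rho came from scipy 1.17.1. The scripts were tested on simulated data. Members and gene lists were chosen with earlier results of these data known. All 10 members are named, and from each list the called genes, at most 4, or else the 2 with the smallest p in the sums. No 2 libraries of a group agreed within sampling noise. The result of 1 listed gene is not reported here.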

Additional observations from a re-analysis of the deposited data

Results flagged for a closer look

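In each group of 4 libraries, a value was picked out when its gap to the nearest other library took a larger part of the group's range than the 95% critical value of Dixon's test allows. This picked out 10 of 100 groups over the 10 genes. A rate of about 1 in 20 by chance holds for independent groups of normally distributed values. The groups here share libraries, the sums reuse the counts of the inputs, and some counts are low, so no excess over chance can be read from the 10.

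At 50 ng these were Slc32a1 in GFAP-IL6 replicate 4 at 27.8 CPM (the others 5.60 to 7.15), Npy in GFAP-IL6 replicate 4 at 402 CPM (743 to 748) and Npy in WT replicate 2 at 677 CPM (777 to 793). At 10 ng it was Sst in WT replicate 4 at 497 CPM (621 to 645), which also stood low in the sums over inputs at 521 CPM (623 to 636). At 1 ng they were Gad2 in GFAP-IL6 replicate 1 at 125 CPM (81.4 to 87.0), Vip in GFAP-IL6 replicate 2 at 184 CPM (103 to 109) and Cort in GFAP-IL6 replicate 3 at 32.3 CPM (17.9 to 19.1). Cort stood high in the same replicate in the sums at 24.98 CPM (15.4 to 16.7). At 0.5 ng it was Slc32a1 in WT replicate 3 at 37.8 CPM (1.66 to 4.94).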

How the results depend on the processing

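Of the single-gene values recomputed under alternatives, 506 kept their direction and side of the threshold, 21 reversed and 2 became calls. Of the counts of called members, 152 kept their value. No member was a call as first tested, so staying on that side of the threshold was likely beforehand and says little about stability. Leaving out 1 library at a time, the log2 difference at 50 ng ranged from -0.11 to 0.18 for Gad2, -0.39 to 0.78 for Slc32a1 and -0.16 to 0.15 for Cort. At 10 ng it ranged from -0.13 to 0.0141 for Gad1, -0.00224 to 0.32 for Gad2 and -0.26 to 0.10 for Cort, and in the sums from -0.0126 to 0.18 for Gad2. The count of members called at 1 ng against 50 ng ranged from 0 to 1, Npy being called without GFAP-IL6 replicate 4. With a length trend removed, chosen after seeing the data, Gad2 stood at -0.0847 at 50 ng, -0.00954 at 10 ng and -0.0491 in the sums, Pvalb at 0.0288 and Cort at 0.0200 at 10 ng. Cort at 50 ng was -0.0103 in a fit of all 32 libraries. The cause was not tested.

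The deviations of WT and GFAP-IL6 libraries that share a number correlated between -0.01 and 0.24, and the numbers were not taken to pair them, although at 50, 10 and 1 ng every WT library correlated best with its own number. Within a genotype, libraries of the same number at 50 and 10 ng correlated from 0.092 to 0.265 in WT and from 0.052 to 0.556 in GFAP-IL6. With the replicate number as a block, 1 member (Pvalb, 0.35, edgeR adjusted p = 0.0447) was called at 0.5 ng against 50 ng, Cort at 50 ng was -0.00802, and the block changed no other call of a member. Between genotypes the block lowered the unadjusted p (edgeR) of Sst to 0.0243 and of Vip to 0.0387 at 50 ng, of Sst to 0.00451, Npy to 0.0234 and Cck to 0.0299 at 10 ng, and of Sst to 0.00424, Vip to 0.0127, Pvalb to 0.0236 and Npy to 0.0272 in the sums, the lowest Benjamini-Hochberg adjusted p of a member being 0.169.

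Over all genes, calls at 50 ng numbered 33, 78 without GFAP-IL6 replicate 4 and 55 with the length trend removed. At 10 ng they numbered 40, 62 with DESeq2 and 77 with the block, and in the sums 63, 128 and 180. At 1 ng 3 became 13 and 7, and at 0.5 ng 1 became 22 with DESeq2. At 1 ng against 50 ng 100 became 238 with DESeq2 and 166 with the block, at 0.5 ng against 50 ng 818 became 1423 with DESeq2, and the interaction at 0.5 ng went from 24 to 244 with DESeq2 and 4 with the block. At 50 ng counting error alone gives a coefficient of variation of 33.0% for Lhx6, whose libraries varied by 26.3%, and of 19.5% for Slc32a1, which varied by 76.4%.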

Other observations

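The genes whose levels followed each member most closely over the 16 libraries at 50 and 10 ng (Pearson's r of log2(CPM + 1), 6597 genes with a mean of at least 20 CPM) were mostly not inhibitory genes. Sst went with Cnbp (0.97) and Ngfrap1 (0.96), Npy with Ubb (0.96) and Suclg1 (0.96), Vip with Mrpl30 (0.93) and Rnf181 (0.92), and Cck with 2010107E04Rik (0.93) and Abhd17a (0.91). Pvalb went with Crcp (0.86) and Sdhd (0.86). Gad1 went with Brinp1 (0.88) and Ncdn (0.84), and Gad2 with Dek (0.92) and Asap1 (0.89). These values are descriptions with no test: the points share libraries, including GFAP-IL6 replicate 4, and the part of that replicate or of gene length in them was not tested.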
